A study of Homo sapiens with 4 samples.

Results

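The cereblon ubiquitin ligase is the machine through which pomalidomide acts, and the chromatin around 10 of its genes was described here from ATAC-seq peaks. The genes encode the ligase itself (CRBN, DDB1, CUL4A, CUL4B and RBX1), proteins that cereblon-binding drugs recruit to it (ZFP91, CSNK1A1 and GSPT1) and a pair of membrane proteins that cereblon assists without a drug (BSG and SLC16A1). A peak belonged to a gene when its summit lay inside that gene's body, or nearest to that body among 19974 protein-coding genes and within 100 kb of it. By this rule the genes held 21 of 76402 peaks in the DMSO list, 26 of 76636 in ATRA, 23 of 69162 in POM and 23 of 85434 in ATRA+POM. Peaks of the 4 lists that overlapped were merged into regions, and 40 of 122632 regions held at least 1 peak of these genes.

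ATAC-seq reads where the Tn5 transposase can insert adapters, which marks open chromatin. The cells were OPM-2, an established line grown from a human multiple myeloma, and the series concerns t(4;14) myeloma and its resistance to immunomodulatory drugs. Treatment lasted 72 h in each group. The groups were the vehicle (DMSO), all-trans retinoic acid at 1 µM (ATRA), which activates retinoic acid receptors, pomalidomide at 1 µM (POM), and both agents at these doses (ATRA+POM). With 1 library for each group there is no replicate to judge a difference by and no p-value, and the intervals below are exact 95% intervals that cover counting error only. Everything rests on 1 cell line.

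In the ligase, a cullin (CUL4A or CUL4B) is a long scaffold. At one end it holds RBX1, the RING protein that brings in the charged ubiquitin-conjugating enzyme, and at the other DDB1, the adaptor that carries exchangeable substrate receptors. Cereblon is one of these receptors, and drugs of the thalidomide family bind in its pocket and create a surface to which new proteins stick and are then degraded. In myeloma the ligase is known as the drug target, and low cereblon is a known route to resistance. RNA and protein were not measured in these libraries, so nothing below is a statement about expression.

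The 4 lists differed in depth, which limits all that follows. Reads piled up at a summit, and the caller's local background there, were recovered from the deposited fold and p-value. Depth was judged by the lowest recovered background of a list divided by its smallest peak width. By this measure ATRA had 94.1% of the depth of DMSO, POM 33.6% and ATRA+POM 62.7%. The lowest background itself was 2.362 in DMSO, 2.355 in ATRA, 0.550 in POM and 1.506 in ATRA+POM. The smallest widths were 234, 248, 162 and 238 bp in the same order. The smallest pileup called was 8 in DMSO, 8 in ATRA, 4 in POM and 7 in ATRA+POM. To compare libraries, pileups were divided by the median pileup ratio to DMSO over the 42930 regions called in all lists, which came to 0.874 in ATRA, 0.397 in POM and 0.708 in ATRA+POM. Such a value is called a scaled pileup, and a region is called higher or lower when scaled pileups differ by 1.5-fold or more. Start-site regions are defined below as those within 1 kb of a gene's start, or of either end where no start is given. These regions were checked for cell type. Those of all 8 plasma cell marker genes (such as SDC1 and IRF4) were called in every list, and 0 of 3 monocyte and 0 of 3 erythroid marker genes had one. CD3E was the only one of 3 T cell marker genes with a region, taken at either end of the gene because the table gives it no strand. The regions of SLAMF7 and TNFRSF17, of the plasma cell markers, were taken in the same way.

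The promoters of 5 genes are shown first, since by scaled pileup their start-site regions span the range of what was seen with POM, from the highest ratio (CRBN) through little difference (CSNK1A1, ZFP91) to lower ratios (DDB1, RBX1). Each is 300 bases, from 250 before to 50 after the annotated start, 5′ to 3′ on the gene's strand, from RefSeq on GRCh38.p14. Capitals mark matches to the motifs searched. CRBN lies at chr3:3179668-3179967, minus strand, DDB1 at chr11:61333056-61333355, minus strand, RBX1 at chr22:40951128-40951427, plus strand, ZFP91 at chr11:58578813-58579112, plus strand, and CSNK1A1 at chr5:149551390-149551689, minus strand.
CRBN: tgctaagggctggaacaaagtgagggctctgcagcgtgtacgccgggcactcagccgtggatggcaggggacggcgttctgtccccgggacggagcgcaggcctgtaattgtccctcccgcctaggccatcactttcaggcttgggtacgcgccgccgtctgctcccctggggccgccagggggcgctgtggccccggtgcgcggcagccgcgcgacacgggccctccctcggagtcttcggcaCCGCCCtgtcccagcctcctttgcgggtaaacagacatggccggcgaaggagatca
CSNK1A1: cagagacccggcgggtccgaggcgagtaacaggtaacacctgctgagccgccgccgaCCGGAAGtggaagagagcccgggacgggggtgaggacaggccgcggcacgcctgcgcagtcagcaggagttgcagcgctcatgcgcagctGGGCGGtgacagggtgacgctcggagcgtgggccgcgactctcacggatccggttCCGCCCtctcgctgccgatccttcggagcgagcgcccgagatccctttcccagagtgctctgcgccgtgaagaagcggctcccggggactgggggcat
ZFP91: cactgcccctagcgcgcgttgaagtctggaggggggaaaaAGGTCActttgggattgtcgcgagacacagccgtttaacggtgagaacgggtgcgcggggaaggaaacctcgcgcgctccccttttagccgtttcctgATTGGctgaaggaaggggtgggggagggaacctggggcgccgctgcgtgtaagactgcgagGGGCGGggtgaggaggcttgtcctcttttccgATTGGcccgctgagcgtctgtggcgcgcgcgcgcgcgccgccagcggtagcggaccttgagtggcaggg
DDB1: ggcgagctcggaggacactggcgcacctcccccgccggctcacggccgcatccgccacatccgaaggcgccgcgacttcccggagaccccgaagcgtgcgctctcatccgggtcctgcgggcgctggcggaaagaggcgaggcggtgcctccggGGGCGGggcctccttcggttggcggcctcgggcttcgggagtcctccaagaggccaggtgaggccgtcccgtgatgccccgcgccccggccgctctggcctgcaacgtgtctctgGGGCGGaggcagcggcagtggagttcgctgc
RBX1: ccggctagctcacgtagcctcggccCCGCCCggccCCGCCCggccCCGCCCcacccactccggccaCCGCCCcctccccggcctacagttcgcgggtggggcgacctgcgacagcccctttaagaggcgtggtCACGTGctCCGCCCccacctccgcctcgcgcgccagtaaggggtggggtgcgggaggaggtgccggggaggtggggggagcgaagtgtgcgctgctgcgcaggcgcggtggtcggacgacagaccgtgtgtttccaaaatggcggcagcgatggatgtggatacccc

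All 300 bases of the DDB1, RBX1, ZFP91 and CSNK1A1 promoters lay under a peak in every list, and 265 to 300 of those of CRBN did. The table had an entry for 9 of the 10 genes, and 7 of these 9 promoters lay at least in part under a peak. Among those 7, the GC box GGGCGG was found within the 300 bases of 6, beside 45% of all 35116 promoters in the table. This share and those below are over every promoter in the table, under a peak or not, so they cover an unlike set. The RBX1 promoter held 5 of them, the DDB1 and CSNK1A1 promoters 2 each and the CRBN promoter 1, which begins 6 bases before the start. ZFP91 and CUL4B held 1 each, and that of CUL4B lay at bases under no peak. Only 75 to 182 bases of the CUL4A window and 0 to 228 of the CUL4B window were under peaks. The ETS letters CCGGAAG were in CSNK1A1 and CUL4B (10.3% of all promoters) and the NF-Y letters CCAAT in ZFP91 and CUL4B (34.6%). The E-box CACGTG was in RBX1 (7.26%). The YY1 letters AAGATGG were in CUL4A (5.84%), at bases under no peak. The nuclear receptor letters AGGTCA were in ZFP91 (13.8%), beginning 210 bases before its start. The CRE TGACGTCA (1.85%), the NRF1 letters GCGCATGCG (1.92%) and the AP-1 letters TGANTCA (7.71%) were in none of the 7. Both strands were searched, no match overlapped another, and a match describes letters in this window and is not a binding site.

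At the start site of CRBN, the substrate receptor, pileup was 162 in DMSO, 148 in ATRA, 84 in POM and 170 in ATRA+POM (chromosome 3, 3179430 to 3180078, summits 28 to 35 bp before the start). At the scale of DMSO these are 162, 169, 212 and 240, so both libraries with POM were the highest and both without it the lowest. The log2 ratio of ATRA+POM to ATRA was 0.50 (0.18 to 0.83), and that of ATRA+POM to DMSO was 0.57 (0.25 to 0.89). For POM against DMSO it was 0.39, and its interval of -0.01 to 0.78 held 0. None of these reached 1.5-fold, and ATRA against DMSO gave 0.06 (-0.27 to 0.39).

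Set beside the start-site regions of all genes, CRBN stood near the top by scaled pileup wherever POM was compared with its absence, and not by the deposited fold for POM against DMSO. A start-site region is the highest-ranked region within 1 kb of a gene's annotated start. The table gave a start for 15812 of 19974 genes. For the others either end of the gene was used, so some regions may lie at 3′ ends. In all, 11333 regions qualified. Of those called in both lists, 42.8% were lower and 4.98% higher in POM than in DMSO, with a median log2 ratio of -0.48, so the scaled pileup of the median start site was lower with POM. The CRBN ratio lay at the 90.8th percentile of these regions for POM against DMSO and at the 94.6th for ATRA+POM against ATRA, a comparison that shares no library with it. The rank of the CRBN peak within its list was at the 93.5th, 93.7th, 96.8th and 98.4th percentile by −log10 q in DMSO, ATRA, POM and ATRA+POM. Ranks come from lists of unequal length, and no change is read from them. The local background at CRBN, at the scale of DMSO, was 8.36 in DMSO, 9.39 in ATRA, 7.51 in POM and 9.99 in ATRA+POM, and the deposited fold of pileup over background was 17.4, 16.2, 21.4 and 21.2. On that fold, scaled by its own median, the CRBN ratio of POM to DMSO was 0.03, beside a median of 0.01 for start-site regions, which put it at the 51.6th percentile. That of ATRA+POM to ATRA was 0.14, beside a median of -0.09, at the 79.6th percentile.

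**Figure D1:**
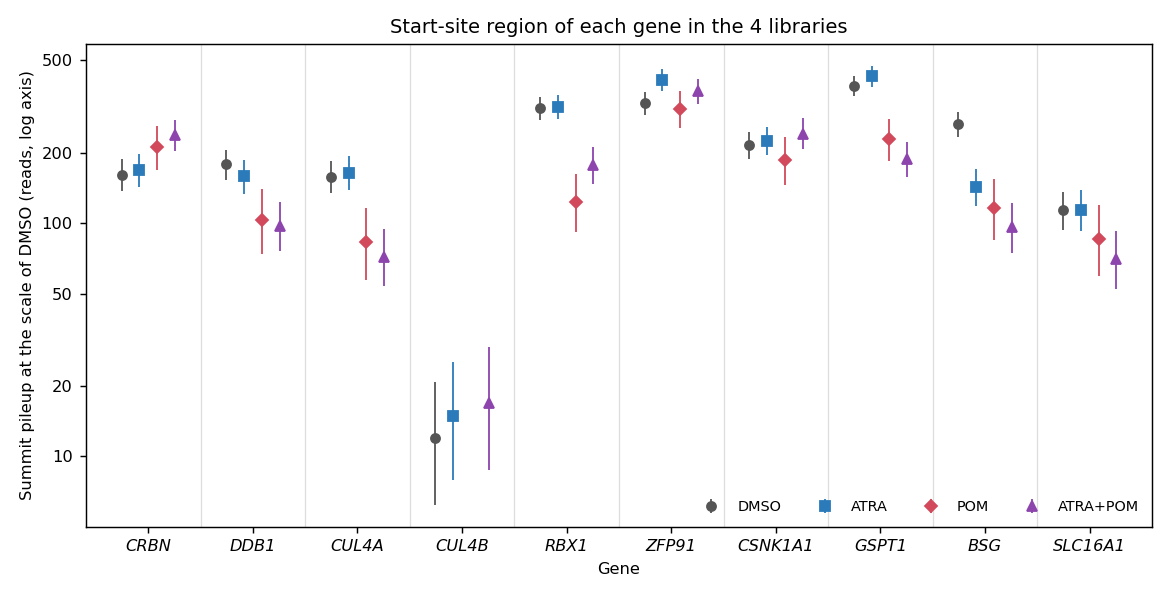
Scaled summit pileup (reads at the scale of DMSO, log axis) at the start-site region of each of the 10 genes in the DMSO, ATRA, POM and ATRA+POM libraries. Bars are exact 95% Poisson intervals of counting error; each point is 1 library, and CUL4B has no POM point because no peak was called there. CRBN goes from 162 in DMSO to 240 in ATRA+POM, while RBX1 goes from 312 in DMSO to 124 in POM and BSG from 266 in DMSO to 143 in ATRA.

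Away from its start, CRBN had 6 further regions, of which 1 was called in all lists. That region lay 22.1 kb upstream of the start (chromosome 3, 3200756 to 3202137), with pileups of 49 in DMSO, 34 in ATRA, 22 in POM and 46 in ATRA+POM. Scaled, these are 49.0, 38.9, 55.5 and 64.9, and ATRA+POM was 1.67 times ATRA (log2 0.74, 0.07 to 1.42), with POM against DMSO at 0.18 (-0.62 to 0.93). As at the start site, both libraries with POM had the highest scaled values, and in both places the interval of POM against DMSO held 0. By the deposited fold, scaled by its median, ATRA+POM against ATRA was 0.19 and POM against DMSO was -0.11, both within 1.5-fold.

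The other 5 CRBN regions were weak. One inside the gene body, 8.51 kb downstream of the start, was called at a pileup of 15 in DMSO and 13 in ATRA and in neither list with POM. At the scales between libraries it would be 5.95 in POM and 10.6 in ATRA+POM, at most a few reads above the smallest pileups called there. Such projections take the library with the highest scaled pileup, and a range is given where other libraries project clearly lower. Regions 12.8, 16.7 and 38.3 kb upstream were called in ATRA+POM alone, at pileups of 13, 19 and 17, and 1 at 42.2 kb upstream in POM alone, at a pileup of 4. The 3 that ATRA+POM alone held would be 7.28 to 10.6 reads in POM and 18.4 to 26.8 in DMSO. Both ranges lie above the smallest pileup called, 4 in POM and 8 in DMSO, and depth limits what absence in POM shows. A projected pileup above the smallest one called need not be called, since the local background also counts.

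DDB1, the adaptor between the cullin and cereblon, had 1 start-site region (chromosome 11, 61332663 to 61333862), which it shares with the divergent gene TKFC. Its pileup was 179 in DMSO, 139 in ATRA, 41 in POM and 69 in ATRA+POM, or 179, 159, 103 and 97.4 when scaled. Both libraries with POM were lower than both without, with log2 ratios of -0.79 (-1.32 to -0.30) for POM against DMSO and -0.71 (-1.15 to -0.28) for ATRA+POM against ATRA. These stood at the 29.9th and 33.0th percentile of all start-site regions, on the lower side of the median but well within the spread. By the deposited fold, scaled by its median, they were -0.07 and -0.12, so neither reached 1.5-fold on that measure. The count of DDB1 peaks by the nearest-body rule was 0 in DMSO, 0 in ATRA, 2 in POM and 1 in ATRA+POM. The region was nevertheless called in every list, and its summit fell 25 bp from the DDB1 body in POM and nearer to TKFC in the other lists, so it counted for DDB1 in POM alone. A further DDB1 region, 1.58 kb past the 3′ end (chromosome 11, 61297386 to 61298386), was called at a pileup of 9 in POM and 21 in ATRA+POM only, and gave the other DDB1 peak in POM and the one in ATRA+POM. It would be 22.7 to 29.6 reads in DMSO and 19.8 to 25.9 in ATRA, where no peak was called.

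CUL4A and CUL4B, the alternative scaffolds, differed from each other in where their strongest regions lay relative to the annotated start. At the start of CUL4A (chromosome 13, 113208061 to 113210308), a region that overlaps the gene PCID2, pileup was 158 in DMSO, 144 in ATRA, 33 in POM and 51 in ATRA+POM. Scaled, these are 158, 165, 83.2 and 72.0, and the libraries with POM were again both the lower ones. The log2 ratio was -0.93 (-1.51 to -0.38) for POM against DMSO and -1.19 (-1.68 to -0.72) for ATRA+POM against ATRA, at the 22.9th and 10.8th percentile of start-site regions. By the deposited fold the ratios were -0.06 and -0.21, both within 1.5-fold. A second CUL4A region, 8.37 kb past the 3′ end (chromosome 13, 113275109 to 113275766), had pileups of 32 in DMSO, 16 in ATRA and 6 in POM and was not called in ATRA+POM, where 22.7 would be projected from DMSO and 10.7 from POM. It was lower by 1.748-fold in ATRA and 2.11-fold in POM than in DMSO, though with so few reads both intervals held 0 on the log2 scale. By the deposited fold, scaled by its median, the log2 ratios were -0.95 and -1.16, both past 1.5-fold.

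CUL4B, on chromosome X, was weak at its annotated start, with pileups of 12 in DMSO, 13 in ATRA and 12 in ATRA+POM and no peak in POM, where 4.76 to 6.72 would be projected. Its strong regions lay elsewhere. CUL4B has 4 transcripts in the reference, and the starts of transcripts other than the annotated one used here were not looked at. The strongest was inside the gene body, 14.5 kb downstream of that start (chromosome X, 120560105 to 120561810), with pileups of 190 in DMSO, 150 in ATRA, 66 in POM and 113 in ATRA+POM. Scaled values there were 190, 172, 166 and 160, and every comparison stayed within 1.5-fold, with POM against DMSO at -0.19 (-0.62 to 0.22).

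Past the 3′ end of CUL4B were 3 regions called in all lists, and these gave 6 of the 7 higher calls made at regions of the 10 genes over all comparisons by scaled pileup, the other being the upstream CRBN region. Of the 6, 3 have counting intervals that hold 0. The farthest, 25.7 kb past the end (chromosome X, 120497762 to 120498469), had pileups of 96 in DMSO, 75 in ATRA, 53 in POM and 96 in ATRA+POM, or 96.0, 85.8, 134 and 136 when scaled. ATRA+POM was 1.58 times ATRA (log2 0.66, 0.21 to 1.11), and POM was 1.39 times DMSO (0.48, -0.04 to 0.98). The deposited fold gave 0.18 and 0.28. The middle region, 11001 bp past the end, had pileups of 11, 11, 9 and 22 in the order DMSO, ATRA, POM and ATRA+POM. Its log2 ratios were 1.045 (-0.40 to 2.45) for POM against DMSO, 1.497 (0.39 to 2.69) for ATRA+POM against DMSO and 1.304 (0.20 to 2.50) for ATRA+POM against ATRA, and by the deposited fold 0.48, 0.67 and 0.68. The nearest, 9.45 kb past the end, had 38, 26, 25 and 33 in the same order. Its ratios were 0.73 (-0.06 to 1.496) for POM against DMSO and 0.65 (-0.14 to 1.45) for ATRA+POM against ATRA, and by the deposited fold 0.12 and 0.06. In all 3 the scaled pileups of both libraries with POM exceeded those of both without, but the weakest rested on 9 to 22 reads. By the deposited fold this did not hold at the nearest region, where ATRA+POM against DMSO was -0.52.

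RBX1, the RING subunit, had the lowest ratio of POM to DMSO of the start sites compared. Its region (chromosome 22, 40950834 to 40952300) had pileups of 312 in DMSO, 276 in ATRA, 49 in POM and 126 in ATRA+POM, or 312, 316, 124 and 178 when scaled. POM was 2.53-fold lower than DMSO (log2 -1.34, -1.80 to -0.90), at percentile 8.3 of start-site regions, and ATRA+POM was 1.77-fold lower than ATRA (-0.83, -1.14 to -0.52), at percentile 26.4. The library with both agents thus lay between POM alone and DMSO, and the log2 ratio of ATRA+POM to POM was 0.53 (0.04 to 1.03), at the 91.8th percentile of start-site regions. The local background also was lower with POM, at 27.4 in DMSO, 26.2 in ATRA, 10.6 in POM and 12.2 in ATRA+POM on the scale of DMSO. The deposited fold was 11.01, 11.6, 9.58 and 13.2, and scaled by its median it gave -0.47 for POM against DMSO, a smaller difference than the pileup gave, and 0.11 for ATRA+POM against DMSO, where the pileup gave -0.81.

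A distal region assigned to RBX1 lay 49.0 kb past its end (chromosome 22, 41021247 to 41022922) and had the lowest ratio of all 17 regions of these genes compared between POM and DMSO. Its pileup was 239 in DMSO, 167 in ATRA, 26 in POM and 58 in ATRA+POM, or 239, 191, 65.5 and 81.9 when scaled. That is 3.65-fold lower in POM than in DMSO (log2 -1.87, -2.51 to -1.28) and 2.33-fold lower in ATRA+POM than in ATRA (-1.22, -1.68 to -0.78). The local background there was 22.3 in DMSO, 18.9 in ATRA, 5.79 in POM and 7.04 in ATRA+POM on the scale of DMSO, lower with POM as well. The deposited fold was 10.3, 9.61, 8.19 and 9.86 in the order DMSO, ATRA, POM and ATRA+POM, and scaled by its median it gave -0.60 for POM against DMSO and -0.22 for ATRA+POM against ATRA. Inside RBX1 and between it and this region were 5 weak regions with pileups of 9 to 14, called in DMSO, in ATRA or in both, and in neither list with POM. The largest pileup projected for them was 6.35 in POM and 11.3 in ATRA+POM, so depth limits what their absence shows.

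ZFP91, a zinc finger protein degraded upon pomalidomide, has its start in a broad region (chromosome 11, 58577664 to 58580010) that it shares with LPXN. Pileup at the highest summit was 327 in DMSO, 361 in ATRA, 123 in POM and 261 in ATRA+POM, or 327, 413, 310 and 368 when scaled. The summits lay at -788 to -364 bp from the ZFP91 start, on the side of LPXN, so the value belongs to both genes. ATRA exceeded DMSO by a log2 ratio of 0.34 (0.12 to 0.56), at the 94.9th percentile of start-site regions, though under 1.5-fold. POM against DMSO was -0.08 (-0.39 to 0.23) and ATRA+POM against ATRA -0.16 (-0.40 to 0.07), both above the median of all start sites. Judged by the deposited fold they were 0.49 and 0.20, at the 92.2nd and 85.3rd percentile. In POM the region was split into a pair of peaks, of which the one with its summit 689 bp inside ZFP91, with a pileup of 83, counted as a ZFP91 peak. A region 494 bp past the 3′ end had pileups of 28 in DMSO, 17 in ATRA and 15 in ATRA+POM and no peak in POM, where 7.71 to 11.1 would be projected, and a region in the gene body was called in POM alone at a pileup of 8.

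CSNK1A1 encodes casein kinase 1 alpha, a drug-recruited substrate best known from lenalidomide. At its start (chromosome 5, 149550978 to 149552028, shared with ARHGEF37) pileup was 216 in DMSO, 198 in ATRA, 74 in POM and 172 in ATRA+POM, or 216, 226, 187 and 243 when scaled. No comparison reached 1.5-fold, and POM against DMSO was -0.21 (-0.61 to 0.18) and ATRA+POM against ATRA 0.10 (-0.20 to 0.40). Past its 3′ end, 21.1 kb from the body, a region called at a pileup of 20 in POM and 24 in ATRA+POM only (chromosome 5, 149471408 to 149472126) projected to 33.9 to 50.4 in DMSO and 29.6 to 44.1 in ATRA. Weak peaks of the other lists lay beside it on either side, with a pileup of 21 in ATRA (149470965 to 149471401) and 16 in DMSO (149472211 to 149472539). So some signal was called at this place in each of the 4 libraries, but at different summits. Farther past the end were regions at 40.7 kb, with pileups of 17 in ATRA and 12 in ATRA+POM, and at 28.0 kb, with 14 in ATRA+POM alone.

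GSPT1, the translation termination factor eRF3a and the target of another class of cereblon-binding drugs, had the highest pileup in DMSO of the 10 start sites. Its region lay just inside the annotated gene (chromosome 16, 11914845 to 11916429, summits 591 to 659 bp downstream of the start), and the 300-base promoter window was under no peak. Pileups were 388 in DMSO, 374 in ATRA, 91 in POM and 134 in ATRA+POM, or 388, 428, 229 and 189 when scaled. Both libraries with POM were lower, by 1.69-fold for POM against DMSO (log2 -0.76, -1.10 to -0.43) and 2.26-fold for ATRA+POM against ATRA (-1.18, -1.47 to -0.89). The latter lay at percentile 11.2 of start-site regions and the former at percentile 32.1. The deposited fold went the other way for POM, with 10.97 in DMSO, 13.8 in ATRA, 16.2 in POM and 11.8 in ATRA+POM. Scaled by its median it gave 0.30 for POM against DMSO and -0.48 for ATRA+POM against ATRA. The local background beside it was 34.5 in DMSO, 29.98 in ATRA, 11.8 in POM and 14.8 in ATRA+POM on the scale of DMSO. The other GSPT1 region, 36.5 kb downstream of the start and inside the gene, was called in ATRA alone at a pileup of 9.

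BSG encodes basigin (CD147), a membrane glycoprotein that escorts monocarboxylate transporters to the cell surface, and was the one gene whose start-site region was lower in ATRA than in DMSO. The region (chromosome 19, 571962 to 573547) lay inside the gene with summits 1070 to 1176 bp downstream of the annotated start, and that start itself was under no peak. Pileups were 266 in DMSO, 125 in ATRA, 46 in POM and 68 in ATRA+POM, or 266, 143, 116 and 96.0 when scaled, so DMSO stood above all 3 treated libraries. ATRA was 1.86-fold lower than DMSO (log2 -0.90, -1.21 to -0.58), at the 1.35th percentile of start-site regions, of which 4.52% were lower and 1.15% higher in that comparison. POM was 2.29-fold lower than DMSO (-1.20, -1.68 to -0.74), while ATRA+POM against ATRA was -0.57 (-1.02 to -0.14), at percentile 41.6. On the deposited fold, BSG gave -0.48 for ATRA against DMSO, at the 2.84th percentile, and -0.20 for POM against DMSO, both within 1.5-fold. The comparisons with DMSO share that library. The comparisons of BSG that do not use it, ATRA+POM against ATRA and against POM (-0.27, -0.83 to 0.30), stayed within 1.5-fold.

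Weak BSG regions 8.18 kb before the gene (pileup 14) and 1.10 kb past its end (chromosome 19, 584524 to 584810, pileup 32) were each called in ATRA alone, and neither in ATRA+POM, which also received ATRA. The latter was 2.62-fold over a local background of 11.6, so it stood little above its surroundings. SLC16A1 encodes the lactate and pyruvate transporter MCT1, the partner of basigin. The table gave no strand for it, and the region at its upper boundary (chromosome 1, 112955342 to 112957078) had pileups of 114 in DMSO, 100 in ATRA, 34 in POM and 50 in ATRA+POM, or 114, 114, 85.7 and 70.6 when scaled. ATRA+POM was 1.62-fold lower than ATRA (log2 -0.70, -1.22 to -0.19), and POM against DMSO was -0.41 (-1.01 to 0.15), near the median of start-site regions. The deposited fold gave -0.12 and 0.09. A weak SLC16A1 region 30.7 kb outside the body was called at 22 in DMSO, 16 in ATRA and 8 in POM and not in ATRA+POM, where 12.96 to 15.6 would be projected. Another, 71.1 kb outside, was called in POM alone at a pileup of 9.

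**Figure D2:**
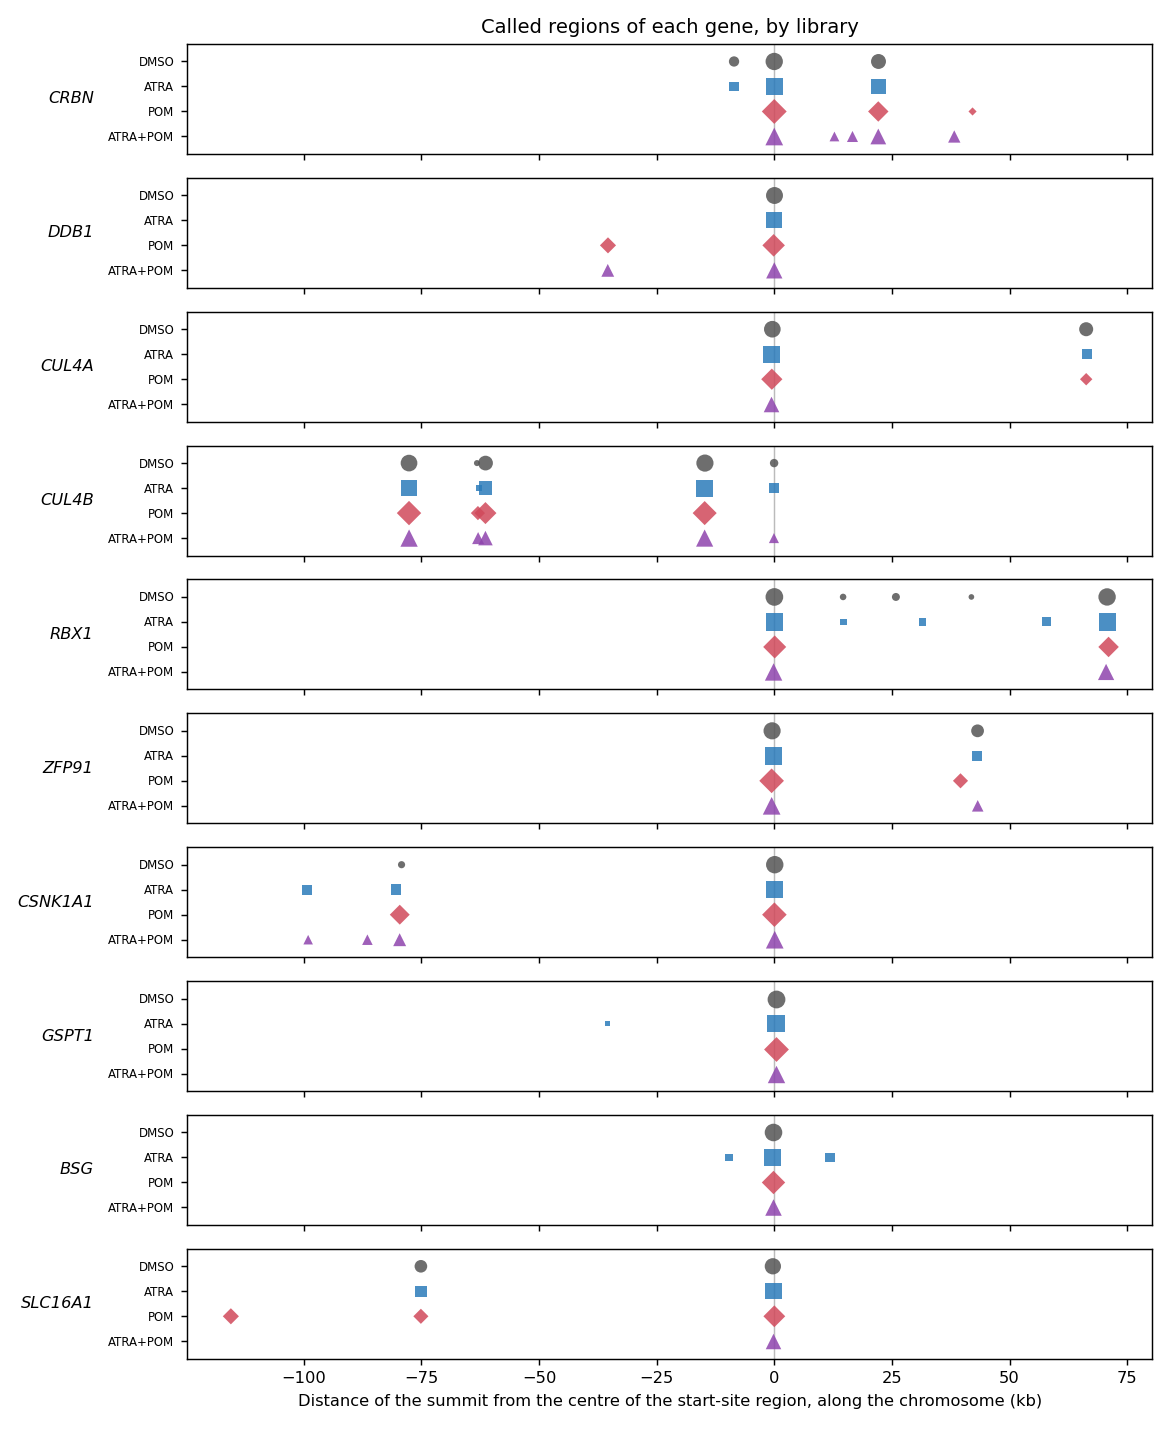
Position of every called region of the 10 genes in each library, as the distance in kb of its summit from the centre of the gene's start-site region along the chromosome. Marker area grows with the percentile of the peak's −log10 q in its own list. The start-site regions are called in every list except that of CUL4B, which POM lacks, while regions called in 1 list alone carry smaller markers than the start-site regions of the same list, apart from the weak start of CUL4B.

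Counted as peaks by the nearest-body rule, in the order DMSO, ATRA, POM and ATRA+POM, the subunits of the ligase had 3, 3, 3 and 6 (CRBN), 2, 3, 3 and 2 (CUL4A), 5, 5, 4 and 5 (CUL4B) and 5, 5, 2 and 2 (RBX1), beside the DDB1 counts above. The drug-recruited substrates had 1, 1, 2 and 1 (ZFP91), 1, 2, 2 and 3 (CSNK1A1) and 1, 2, 1 and 1 (GSPT1), and the membrane proteins 1, 3, 1 and 1 (BSG) and 2, 2, 3 and 1 (SLC16A1). The count for CRBN was highest in ATRA+POM, through its 3 weak upstream regions called there alone. The count for RBX1 was lower in both lists with POM, where its start-site region and its most distant region were the ones called.

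Among all peaks of a list, the start-site peaks of most of these genes ranked high by −log10 q. GSPT1 was at percentiles 98.9, 99.5, 96.1 and 94.3 in DMSO, ATRA, POM and ATRA+POM, and CSNK1A1 at 94.5, 94.8, 94.2 and 97.8. RBX1 was at 97.4, 97.5, 81.5 and 94.5, and BSG at 96.4, 87.1, 84.6 and 84.4. CUL4A was at 85.6, 87.9, 68.1 and 73.7, and SLC16A1 at 81.4, 82.6, 72.5 and 73.1, so both stood below GSPT1 and CSNK1A1 in every list. Most peaks lie away from genes, with 12.3% to 15.1% of a list within 1 kb of a gene boundary. Ranked among those alone, GSPT1 was at 93.98, 97.2, 82.8 and 71.7, RBX1 at 85.7, 86.3, 46.6 and 72.2, and CRBN at 65.5, 66.7, 85.5 and 90.5. CUL4A stood at 39.1, 44.9, 30.6 and 30.5 there and SLC16A1 at 32.1, 34.2, 34.8 and 29.97, in the lower part of such peaks. All these are places within lists of unequal length, and no change between libraries is read from them.

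Of the 40 regions, 15 (37.5%) were in all lists, beside 35% of all regions, and 16 (40%) were in 1 list alone, beside 35.2% of all regions. The pattern of POM and ATRA+POM only was held by 2 regions (5%, beside 6.05% of all regions), near DDB1 and CSNK1A1, and DMSO and ATRA only by 2 (5%, beside 6.31%), in CRBN and RBX1. Regions called in ATRA alone numbered 6 (15%, beside 7.93%) and in ATRA+POM alone 4 (10%, beside 13%).

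Gains and losses by comparison were as follows. For ATRA against DMSO, 7 of 31 regions were gained and 3 lost, beside 16.3% gained and 16.3% lost over all regions. For POM against DMSO, 5 of 29 were gained and 7 lost, beside 19.5% and 29.1%. For ATRA+POM against DMSO, 7 of 31 were gained and 7 lost, beside 26.8% and 18.8%. These 3 comparisons share the DMSO library. For ATRA+POM against ATRA, 6 of 34 were gained and 10 lost, beside 27.1% and 19.2%, and for ATRA+POM against POM 7 of 29 were gained and 5 lost, beside 30.4% and 12.4%. With so few regions a comparison, nothing particular to these genes is read from the shares.

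Among regions called in both lists, lower values outnumbered higher ones by scaled pileup wherever POM was compared with its absence. The scale from gene-boundary regions turned this in each such comparison. The deposited fold and the scale from depth did not turn it for POM against DMSO. The fold turned it for ATRA+POM against DMSO and against ATRA, with 1 higher and 0 lower in each. The scale from depth turned it for ATRA+POM against ATRA (5 higher, 3 lower) and not for ATRA+POM against DMSO (4 higher, 6 lower). For POM against DMSO 2 of 17 were higher and 7 lower, beside 25.8% higher and 21.5% lower over all regions, with a median log2 ratio of -0.21 beside 0.04. For ATRA+POM against ATRA 4 of 18 were higher and 6 lower, beside 23.7% and 21.6%, with a median of -0.13 beside 0.00. For ATRA+POM against DMSO 1 of 17 was higher and 7 lower, beside 26.7% and 21.6%, with a median of -0.25 beside 0.05. For ATRA against DMSO 0 of 21 were higher and 2 lower (BSG and the distal CUL4A region), beside 7.23% and 5.8%. Between ATRA+POM and POM 0 of 17 were higher and 0 lower, beside 12.9% and 9.73%. With the scale from gene-boundary regions, 5 were higher and 4 lower for POM against DMSO, beside 47% and 7.62% of all regions, and 8 and 3 for ATRA+POM against ATRA, beside 45.3% and 7%. By the deposited fold, 0 were higher and 2 lower for POM against DMSO, beside 10.2% each way, and 1 higher and 0 lower for ATRA+POM against ATRA, beside 10.7% and 7.18%. Start-site regions made up most of the regions of these genes that were compared with POM, and over all genes the median start site had a lower scaled pileup with POM, as given above.

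At the start sites themselves, 5 of 9 were lower and 0 higher in POM than in DMSO, a share of 55.6% beside the 42.8% given above. Those were DDB1, CUL4A, RBX1, GSPT1 and BSG. Between ATRA+POM and ATRA 5 of 10 were lower and 0 higher, beside 41% and 4.43%, and DDB1, CUL4A, RBX1 and GSPT1 were again among them, with SLC16A1 in the place of BSG. Between ATRA+POM and DMSO 6 of 10 were lower and 0 higher, beside 43.2% and 4.6%. Between ATRA+POM and POM 0 of 9 were lower and 0 higher, beside 7.47% and 6.24%. With 9 or 10 genes these shares are not far from those of all start sites. For POM against DMSO the 9 ratios ran from -1.34 to 0.39, with a median of -0.76 beside -0.48 for all start sites. By the deposited fold none of the 9 start sites passed 1.5-fold for POM against DMSO, beside 4.16% higher and 7.27% lower over all start sites, and none of the 10 did for ATRA+POM against ATRA, beside 2.04% and 5.57%. On the gene-boundary scale 1 was higher and 2 lower for POM against DMSO, beside 18.5% and 17.3%, and 3 higher and 2 lower for ATRA+POM against ATRA, beside 17.4% and 14.8%.

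**Figure D3:**
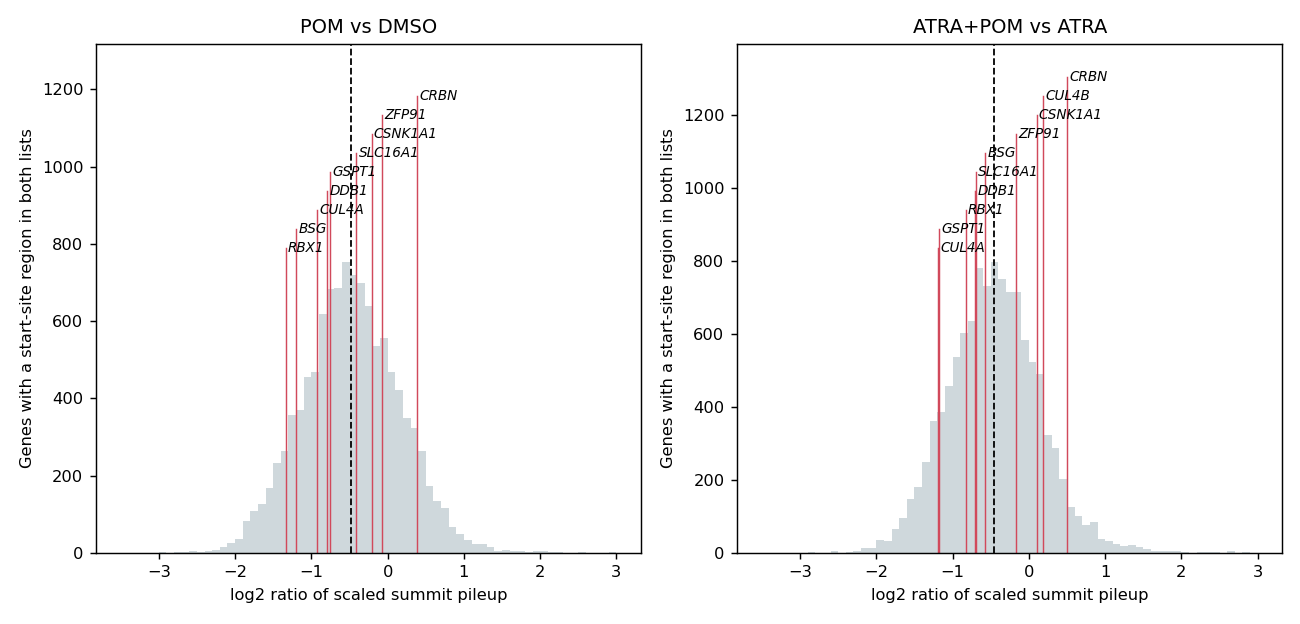
Log2 ratios of scaled summit pileup at the start-site regions of all genes called in both lists (grey histogram, count of genes, values beyond the axis drawn at its ends), for POM against DMSO and for ATRA+POM against ATRA, which share no library. Red lines mark the 10 genes, the dashed line is the median of all genes, near -0.48 and -0.45. CRBN lies at the right of both panels, at 0.39 and 0.50, and CUL4A, GSPT1 and RBX1 lie left of the median in both.

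The lower values at start sites depend on how a library is scaled. The local background at the 9560 start-site regions called in all lists was lower still, with a median log2 ratio of -1.09 for POM against DMSO and -0.72 for ATRA+POM against ATRA, beside -0.48 and -0.45 for the pileup. Scaling on regions near gene boundaries raises every ratio of a library with POM to one without by about 0.48. On that scale CRBN is 0.87 for POM against DMSO and 0.99 for ATRA+POM against ATRA, RBX1 is -0.86 and -0.34, BSG is -0.72 and -0.09, and CUL4A is -0.45 and -0.70. The order of the genes is the same on both pileup scales, and which of them pass 1.5-fold is not. The depth of POM was 33.6% of DMSO, and its part in the lower ratios was not tested.

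**Figure D4:**
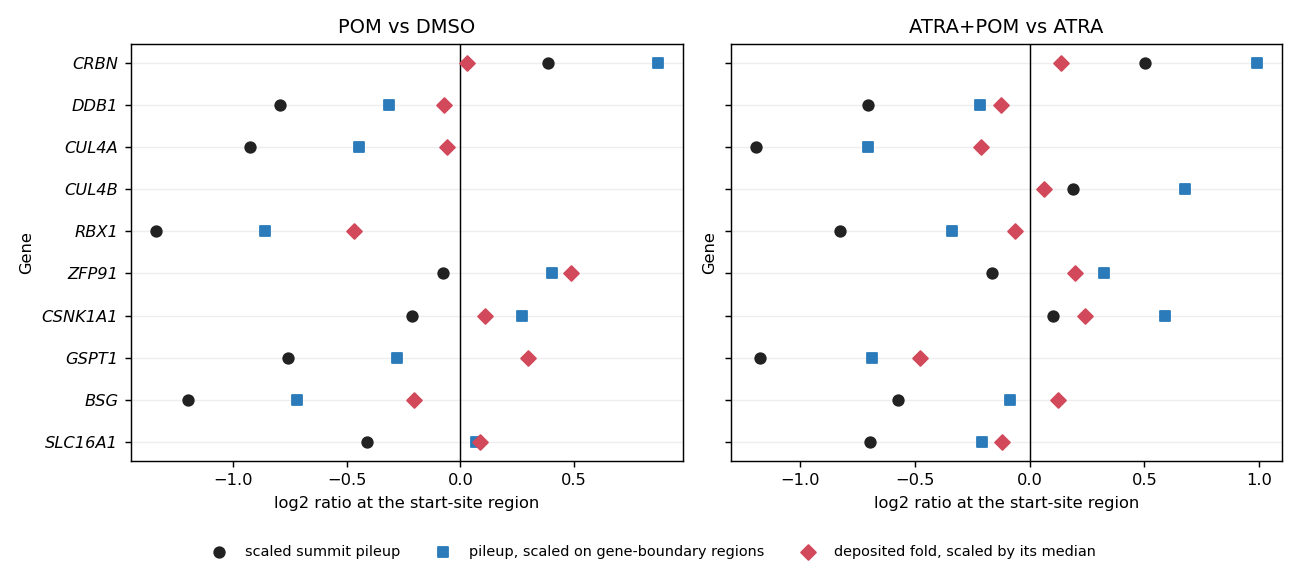
Log2 ratio at the start-site region of each of the 10 genes for POM against DMSO and ATRA+POM against ATRA, by the scaled summit pileup (black), by the pileup scaled on gene-boundary regions (blue) and by the deposited fold over background scaled by its median (red). CUL4B has no POM value. By the fold most values lie close to 0: for POM against DMSO CRBN is 0.03, CUL4A -0.06 and DDB1 -0.07, and RBX1 is -0.47, while GSPT1 is -0.76 by the pileup and 0.30 by the fold.

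The base composition of the promoter was also recorded. Across all start sites with a promoter entry, the GC share of the 300 bases and the log2 ratio had a Spearman correlation of -0.14 for POM against DMSO (7970 regions), -0.16 for ATRA+POM against ATRA (8090), -0.19 for ATRA+POM against POM (7955), -0.22 for ATRA against DMSO (8317) and -0.26 for ATRA+POM against DMSO (8104), each a description across regions of the same libraries. From the lowest to the highest GC quartile the median ratio of POM to DMSO went from -0.39 to -0.59 and that of ATRA to DMSO from 0.04 to -0.09. The promoter of CRBN has 69.0% GC, that of CSNK1A1 69.7%, that of RBX1 73.3% and that of DDB1 74.3%, and the part of base composition in their ratios was not tested. GSPT1 and CUL4B had the lowest GC, 45.3% and 45.7%.

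The wider pathway was taken from 8 lists of 80 genes, of which 71 had a start-site region. For POM against DMSO 27 of 66 (40.9%) were lower and 0 higher, and for ATRA+POM against ATRA 32 of 68 (47.1%) were lower and 0 higher, again near the shares of all start sites. For ATRA against DMSO 1 of 69 (1.45%) was lower and 0 higher, beside 4.52% and 1.15% of all start sites. Between ATRA+POM and POM 3 of 67 were higher and 3 lower (4.48% each), beside 6.24% and 7.47%. Genes lower in both comparisons that share no library numbered 22 of 66 (33.3%), beside 31.2% of all start-site regions. By the deposited fold, 3 pathway genes were higher and 2 lower for POM against DMSO, beside 4.16% and 7.27% of all start sites. For ATRA+POM against ATRA 0 were higher and 2 lower, beside 2.04% and 5.57%. On the gene-boundary scale 7 were higher and 16 lower for POM against DMSO, beside 18.5% and 17.3% of all start sites. For ATRA+POM against ATRA 8 were higher and 16 lower, beside 17.4% and 14.8%. The lower counts above, and the absence of higher ones, thus rest on the scaled pileup and its scale. The 5 lowest by their mean were ZNF276 and RNF166, a zinc finger and a RING protein reported as drug-recruited substrates, UBE2M, the enzyme that conjugates NEDD8 to cullins, DCAF10, another receptor that docks on DDB1, and CSNK1E, a casein kinase 1 isoform. Their ratios for POM against DMSO were -1.92, -1.63, -1.53, -1.67 and -1.33, and for ATRA+POM against ATRA -1.45, -1.60, -1.64, -1.49 and -1.70. Their unscaled pileups in POM were 39, 31, 62, 25 and 12 in the same order, so CSNK1E rested on the fewest reads.

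By list, the counts of lower start sites are to be read beside the 42.8% of all start sites for POM against DMSO and the 41% for ATRA+POM against ATRA. The receptors and partners of the ligase had 3 of 18 and 7 of 18 lower, with medians of -0.27 and -0.35. The genes of neddylation and the COP9 signalosome, which switch cullin ligases on and off, had 9 of 15 and 8 of 15, with medians of -0.79 and -0.59. Other reported drug substrates had 6 of 12 and 8 of 13. The smaller lists, with 3 to 5 genes compared, ran from 0 of 3 in both comparisons (translation termination) to 3 of 3 and 4 of 4 (monocarboxylate transporters and basigin partners). Ubiquitin E1 and E2 enzymes had 1 of 5 in both, native partners and chaperones of cereblon 2 of 5 in both, and the casein kinase 1 family 3 of 5 and 2 of 5. Differences between lists of this size were not tested. IKZF1 and IKZF3, the main drug substrates in myeloma, had unscaled start-site pileups of 227 and 113 in DMSO and 55 and 31 in POM. Their scaled log2 ratios for POM against DMSO were -0.71 and -0.53, beside a median of -0.48 for all start sites. Only IKZF1 reached 1.5-fold there. For ATRA+POM against ATRA the ratios were -0.49 for IKZF1 and -1.25 for IKZF3, beside a median of -0.45, and only IKZF3 reached 1.5-fold. The IKZF3 region was taken at either end of the gene, as the table gives it no start.

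By their 3 log2 ratios to DMSO, the pathway genes nearest to CRBN among 66 with all values were DCAF13 (Euclidean distance 0.26), ABCE1 (0.39) and DCAF6 (0.43). DCAF13 had 0.28 in ATRA, 0.39 in POM and 0.42 in ATRA+POM, beside 0.06, 0.39 and 0.57 of CRBN. The DCAF13 region was taken at either end of that gene, which has no start in the table. ABCE1, a ribosome recycling factor, had -0.03, 0.15 and 0.28, and DCAF6 had 0.18, 0.16 and 0.21. These ratios share the DMSO library, and nothing is said by them of shared control.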

How the data were processed

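For each library the authors deposited a peak list on hg38, per the submitters' processing notes. Which aligner and caller made them, and whether reads were shifted for Tn5, is not stated in any source used here. The deposited score equals 10 times the deposited −log10 q-value with the decimals cut off, the deposited fold is a ratio over local background, and the deposited −log10 p-value belongs to the summit. The other deposited column places the summit within the peak. Only chromosomes 1 to 22 and X were kept, without 2 DMSO and 3 ATRA peaks.

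Gene bodies were those of RefSeq on GRCh38.p14, the assembly behind hg38, and strands and starts from its promoter table (15812 of 19974 genes), with 1 start taken for each gene. Summit pileup and background were solved from fold and p-value under a Poisson tail, an assumption about the caller, and met the deposited −log10 p within 0.01 for 99.6% to 99.98% of peaks. Regions were peaks overlapping by 1 bp. A region counts for a gene if it holds any of its peaks. The plan had taken the gene of the highest-ranked peak, which leaves 37 regions. The limit for start sites was 1 kb, from either gene end where no start was given, and ratios have exact binomial intervals. In simulated lists of 2000 sites for POM against DMSO, the 200 gained, 200 lost and 200 higher sites planted were all recovered, with 0 false calls. No lower sites were planted, and the pileups had no counting noise. The simulation therefore checked the counting steps and not the accuracy of the calls. Named pathway genes are the 5 per direction with the largest mean ratio among those past 1.5-fold in both comparisons that share no library, and the 3 nearest to CRBN. Members and lists were chosen with earlier results of these data known. Groups follow the treatment label, with 1 library each and no test. Python 3.11.15, numpy 2.4.6, scipy 1.17.1 and pandas 2.3.3 were used.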

Additional observations from a re-analysis of the deposited data

How the results depend on the processing

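A count was taken as moved beyond 1.5 times, a median beyond 0.1 on the log2 scale, and a start-site ratio outside its counting interval. Scaling on gene-boundary regions shifted POM and ATRA+POM by -0.48 on the log2 scale of the divisor. It gave 5 higher and 4 lower regions and a median of 0.27 for POM against DMSO, 8 and 3 with 0.23 for ATRA+POM against DMSO, and 8 and 3 with 0.35 for ATRA+POM against ATRA. Scaling on depth gave 4 higher and a median of 0.026 for POM against DMSO, 4 higher with -0.075 for ATRA+POM against DMSO, 3 lower with 0.15 for ATRA+POM against ATRA, 1 lower for ATRA+POM against POM, and a median of -0.12 for ATRA against DMSO. The deposited fold gave 1 lower for ATRA against DMSO, 0 higher and 2 lower with a median of -0.059 for POM against DMSO, 0 lower with -0.023 for ATRA+POM against DMSO, 1 higher and 0 lower with 0.062 for ATRA+POM against ATRA, and 1 lower for ATRA+POM against POM. Ranked among gene-boundary peaks, 23 of 26 percentiles of a gene's highest peak moved by 10 or more, and ranked by the deposited fold 15 of 38 did. The deposited fold turned the start-site ratio of GSPT1 for POM against DMSO to 0.30 and that of RBX1 for ATRA+POM against DMSO to 0.11. The cause was not tested.

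With 2-fold as the threshold, 0 regions were lower for ATRA against DMSO, 1 higher and 4 lower for POM against DMSO, 4 lower for ATRA+POM against DMSO, and 1 higher and 3 lower for ATRA+POM against ATRA. With a limit of 10 kb, POM had 15 peaks and ATRA+POM 12. Gained regions were then 4 for ATRA against DMSO, 2 for POM against DMSO, 1 for ATRA+POM against DMSO, 1 for ATRA+POM against ATRA and 2 for ATRA+POM against POM. Lost regions were 1 for ATRA against DMSO, 4 for ATRA+POM against DMSO and 2 for ATRA+POM against POM, and the medians were -0.58 for POM against DMSO and -0.40 for ATRA+POM against DMSO. With lists of equal length, 4 were gained and 1 lost for ATRA against DMSO, and 4, 4 and 6 were lost for POM against DMSO, ATRA+POM against DMSO and ATRA+POM against ATRA. Absence of a summit within 250 bp gave 5 lost for ATRA against DMSO. Among the 20000 highest peaks of each list the genes held 9, 9, 11 and 7 in DMSO, ATRA, POM and ATRA+POM. Assigning a region by its highest-ranked peak, an alternative added after the data were seen, left every count within 1.5 times and every median within 0.1. No paired analysis was possible because each group has 1 library. Depth limits all calls of absence in POM.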
